A study of Mus musculus with 6 samples.

Results

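C3 and Hc were each read in 6 mouse tissue sections by in situ imaging, in which probes bound to a transcript are decoded under the microscope and every transcript is placed in a segmented cell. Hc is the mouse gene for complement component C5. Both genes were taken because their raw counts were in the features of every section, so they were 2 of the 477 genes of 1 probe panel and 2 of the 5050 genes of the other. The panels together held 5294 genes and shared 233 of them. The wild-type mice were purchased from a commercial breeder, and no section carried a mutation or a transgene. The E14.5 liver was from an untreated embryo at embryonic day 14.5, and the P8 marrow was from the femur of an untreated pup on postnatal day 8. The untreated spleen was from an adult without phenylhydrazine, and its label does not say whether the vehicle was injected. The PHZ spleen was from a mouse injected intraperitoneally with 40 mg/kg of phenylhydrazine (PHZ, a hemolytic drug that drives stress erythropoiesis) 2 times a day for 2 days. These 4 sections were read with the 477-gene panel in a single imaging run. The E13.5 liver was from an untreated embryo at embryonic day 13.5, and the 89-week marrow was from an untreated mouse aged 89 weeks. Those sections were read in a later run with the 5050-gene panel and another way of drawing cells, so panel, run and segmentation cannot be told apart from age in any comparison between the panels. Between the marrows, tissue preparation differed as well. Each condition was 1 section, so every interval given here is a 95% interval for counting error only, and no difference between sections has a replicate check.

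Complement is a set of plasma proteins that mark and lyse microbes and damaged cells. C3 is the component on which its activation routes meet: convertases cleave C3, and the fragment C3b binds covalently to nearby surfaces. C5 is cleaved later and starts assembly of the membrane attack complex, while its small fragment C5a attracts neutrophils. Hepatocytes secrete most of the C3 and C5 in plasma, and macrophages, fibroblasts and fat cells are known local sources of C3. The question addressed here is which cells hold C3 and Hc transcripts in the hematopoietic organs, read against Serpina10 (a serine protease inhibitor made by hepatocytes), C1qb (a chain of C1q, the first complement component, made by macrophages) and Pdgfrb (a receptor of stromal and mural cells).

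The promoters of both genes are shown because the genes differ in where they were detected. The window runs from 250 bases before to 50 bases after the RefSeq start on GRCm38.p6 and was read on the minus strand. C3 lies at chr17:57203967-57228136 and its window at chr17:57228087-57228386. Hc lies at chr2:34983329-35068506 and its window, around a start inside that span, at chr2:35061363-35061662. Capitals mark matches, on either strand, to TATAAA, to TTNCNNAA (a loose form of the C/EBP motif) and to ATTAAC (the end part of the HNF1 motif, not the whole motif).
C3: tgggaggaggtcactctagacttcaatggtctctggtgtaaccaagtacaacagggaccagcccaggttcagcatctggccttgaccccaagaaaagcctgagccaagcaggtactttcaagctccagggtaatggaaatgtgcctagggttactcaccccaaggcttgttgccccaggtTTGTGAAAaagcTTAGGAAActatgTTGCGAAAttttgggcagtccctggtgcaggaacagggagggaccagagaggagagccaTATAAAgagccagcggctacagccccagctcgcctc
Hc: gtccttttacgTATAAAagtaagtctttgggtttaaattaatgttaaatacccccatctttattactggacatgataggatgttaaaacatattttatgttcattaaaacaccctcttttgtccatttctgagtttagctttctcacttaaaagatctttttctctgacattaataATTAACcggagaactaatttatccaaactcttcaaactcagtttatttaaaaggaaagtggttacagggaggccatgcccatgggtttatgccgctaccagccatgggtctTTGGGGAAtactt
The C3 window held TTNCNNAA at -70, -58 and -45 from the RefSeq start, TATAAA at 14, after that start, and no ATTAAC. The Hc window held ATTAAC at -74 and TATAAA at -239, with its TTNCNNAA match at 37, after the start. TTNCNNAA occurs in 40.7% of the 32851 RefSeq promoters of this length, TATAAA in 13.6% and ATTAAC in 7.10%, and the matches are a description of the letters only.

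After cells with under 5 detected genes were left out, the E14.5 liver had 117323 cells, the P8 marrow 50523, the untreated spleen 108327, the PHZ spleen 94492, the E13.5 liver 5254 and the 89-week marrow 140707. Gene counts per section ran from 1384754 in the E13.5 liver to 20952120 in the E14.5 liver, and the median cell had from 62 counts in the 89-week marrow to 191 in the E13.5 liver. The hepatocyte markers defined both livers: the list took 42050 CPM (counts per 1000000 gene counts) in the E14.5 liver and at most 466 in the marrow and spleens of the same panel. The erythroid list took 22672 CPM in the untreated spleen and 193674 in the PHZ spleen. The P8 section held cartilage and muscle beside marrow, with 42468 CPM of the cartilage list and 16705 CPM of the skeletal muscle list. Cell names are assigned within a section, and 24 of 521938 occurred in more than 1.

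C3 was present in every section. On the 477-gene panel its level was 8796 CPM (8756 to 8837) in the E14.5 liver, 6802 (6752 to 6853) in the untreated spleen, 3407 (3374 to 3441) in the PHZ spleen and 1749 (1717 to 1782) in the P8 marrow. That is the full order, and no neighbours in it overlapped in their counting intervals. C3 transcripts were in 54.9% of cells of the E14.5 liver, 28.6% of the untreated spleen, 20.1% of the PHZ spleen and 14.1% of the P8 marrow. By total counts C3 ranked 25 of 477 genes in the E14.5 liver and 114 in the P8 marrow, a ranking that also depends on how many probe sets each gene has. On the 5050-gene panel, which carries 1 C3 probe set in place of 5, C3 was at 480 CPM (444 to 518) in the E13.5 liver and at 668 (654 to 683) in the 89-week marrow. C3 counts per 1000 cells ran in the other order, at 127 and 62.0.

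Hc was counted mainly in the livers. It stood at 2615 CPM (2594 to 2637) in the E14.5 liver and was detected in 25.8% of its cells. In the same run it stood at 30.9 CPM (27.6 to 34.5) in the untreated spleen, 23.5 (20.8 to 26.5) in the PHZ spleen and 18.0 (14.9 to 21.6) in the P8 marrow, where the last pair overlapped in their intervals. On the other panel Hc was at 260 CPM (234 to 288) in the E13.5 liver, in 5.31% of cells, and at 6.44 CPM (5.14 to 7.97) in the 89-week marrow. Outside the livers, Hc was within 2.9 to 4.67 times the single highest negative control probe of its section, against 522 times in the E14.5 liver. C3, at its lowest on the 477-gene panel, was still 281 times the highest control.

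**Figure D1:**
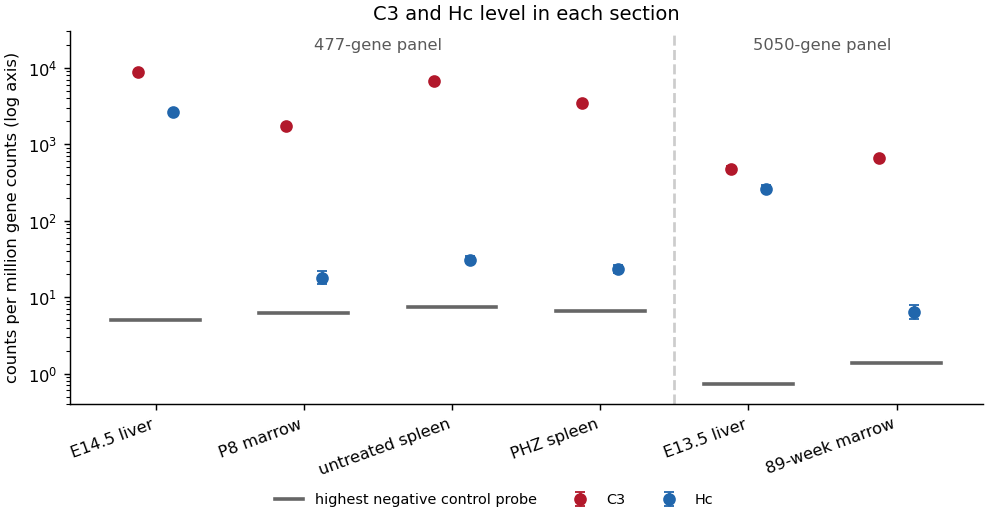
Level of C3 and Hc in each of the 6 sections, in CPM on a log axis, with 95% counting intervals; grey bars give the highest negative control probe of the section and the dashed line separates the panels. C3 lies far above the controls in every section, from 480 to 8796 CPM, while Hc does so in the livers and lies between 6.44 and 30.9 CPM elsewhere.

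In the E14.5 liver, both genes were highest in cells with Serpina10. Cells with Serpina10 and neither of the other anchors had 18870 CPM of C3 (18729 to 19012), and 88.3% of them held a C3 transcript. Cells without any of the 3 anchor transcripts had 7327 CPM, those with C1qb alone 3883 and those with Pdgfrb alone 4761. The Serpina10 cells were thus 2.58 times (2.55 to 2.60) as high as cells without an anchor, and the C1qb cells 0.530 times (0.521 to 0.539). Hc ran in the same order with a wider range. It was at 6721 CPM (6637 to 6806) with Serpina10, 1819 without an anchor, 986 with C1qb and 1105 with Pdgfrb, a ratio of 3.70 (3.63 to 3.77) for Serpina10. Serpina10 cells were deeper, and with every cell thinned to 50 counts C3 was still detected in 57.2% of them against 27.3% without an anchor, and Hc in 25.7% against 8.43%. In cells with both Serpina10 and C1qb, C3 was at 13763 CPM and Hc at 4598, between the values of either anchor alone. In cells with both Serpina10 and Pdgfrb, C3 was at 18026 CPM and Hc at 6787, near the values with Serpina10 alone.

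**Figure D2:**
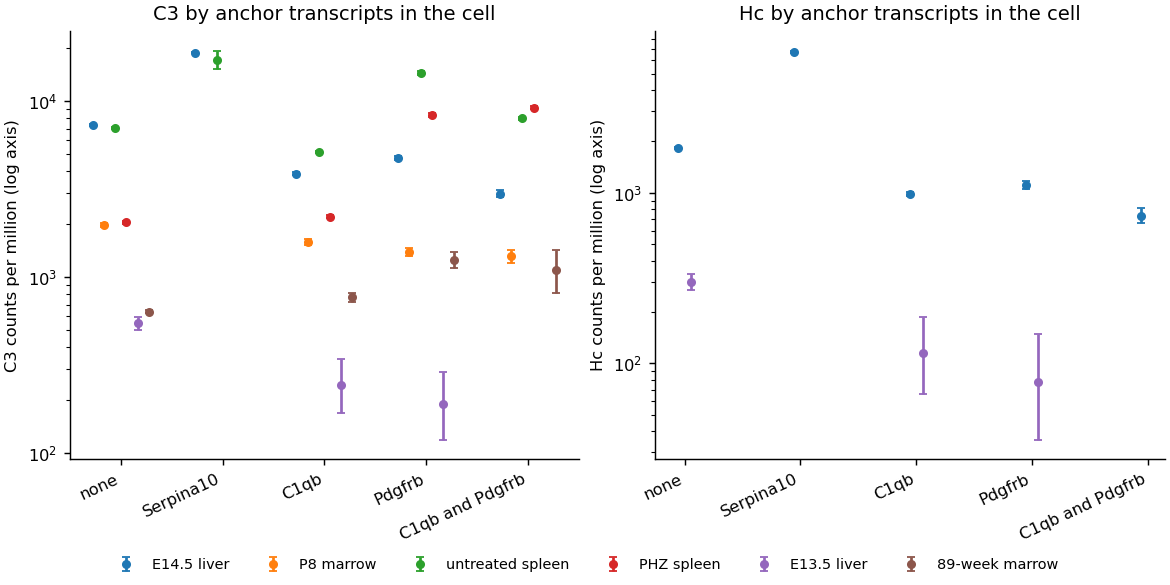
C3 (left, all sections) and Hc (right, the livers) in cells that hold no anchor transcript or only the anchors named on the horizontal axis, in CPM on a log axis with 95% counting intervals, for classes of at least 100 cells; combinations of Serpina10 with another anchor are not drawn. Of the classes drawn, Serpina10 cells are the highest in the E14.5 liver for both genes, and Pdgfrb cells stand above C1qb cells in both spleens.

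The list of 9 hepatocyte genes on the panel, which includes Ambp, Gc, Hpx and Kng2 (plasma proteins or their precursors), drew the division more sharply than Serpina10 alone. Cells with at least 3 counts of the list held 93.3% of all C3 counts and 93.8% of all Hc counts, in 60.4% of cells. The erythroid list was reached by 99.0% of cells, which held 99.6% of C3 and 99.75% of Hc counts. Nearly all hepatocyte list cells thus also held erythroid counts, and a list cell is not the same as a hepatocyte. The C3 level of hepatocyte list cells was 12226 CPM against 1104 in cells without a count of that list, a ratio of 11.1 (10.7 to 11.5). For Hc the levels were 3655 and 316 CPM, a ratio of 11.6 (10.9 to 12.4). Cells with at least 3 counts of 1 gene of the list were higher still, with 28231 CPM of C3 for Serpina10, 21507 for Hpx and 14222 for Ambp. Cells of the macrophage list had 7216 CPM of C3, 0.672 times (0.663 to 0.681) those without it, and held 42.4% of the C3 counts. Its genes ran from 2268 CPM in cells with at least 3 transcripts of Timd4 (a receptor for dying cells on resident macrophages) over 2669 for C1qa and 4374 for Mrc1 to 7583 for Slc40a1, and each of the 9 genes with a value was below the cells without it. The neutrophil list lay on the other side, with 1.36 times (1.34 to 1.38) for C3 and 1.03 times for Hc. Within it C3 was at 17270 CPM for S100a9 (2.03 times), 16545 for Stfa2l1 (1.91) and 13928 for Elane. Cells of the mural list, the smooth muscle and pericyte genes, had 4109 CPM of C3 and 959 of Hc. Those of the mesothelium list (18053 CPM of C3) and of the fat list (21925) were high, but by single members of each list. In the first, Krt8, a keratin that hepatocytes also express, gave 19464 CPM, while Upk3b gave 1911, Krt19 1348 and Upk1b 1328. In the second, Car3 gave 22133 CPM and was found at that level in 6046 of the 6965 list cells.

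C3 and Hc went together cell by cell. C3 was at 5703 CPM in cells without an Hc transcript, 11546 with 1, 18166 with 2 and 26446 with at least 3, and 97.9% of that last group held C3. Hc was at 737 CPM in cells without C3, 1579 with 1 C3 transcript, 2498 with 2 and 6150 with at least 3. The cells with more of either transcript were also deeper, with a median of 158 counts at 0 Hc transcripts and 223 at 3 or more. The proportion of the pair differed between classes. There were 2.81 C3 counts per Hc count (2.77 to 2.85) in Serpina10 cells, against 4.03 (3.96 to 4.09) in cells without an anchor, 3.94 in C1qb cells and 4.31 in Pdgfrb cells.

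Cells without an anchor were graded by their distance from a cell rich in Serpina10. C3 was at 9904 CPM within 10 µm of a cell with at least 3 Serpina10 transcripts, 7435 at 10 to 20 µm, 6989 at 20 to 40 µm and 6298 farther out. Hc was at 2290, 1902, 1770 and 1503 CPM over the same steps. Around cells rich in C1qb there was no such gradient: C3 was at 5936 CPM within 10 µm, 7787 at 10 to 20 µm, 7620 at 20 to 40 µm and 5461 farther out, and Hc at 1505, 1943, 1841 and 1661. How far transcripts at cell borders fall in a neighbour's outline was not tested.

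The genes with the largest ratio between cells with at least 3 C3 transcripts and cells with none were Serpina10 (10.3 times), Abcb11 (8.41, the bile salt export pump), Hc (8.34), 0610005C13Rik (8.34) and Slc27a2 (8.16, a fatty acid transporter). For Hc they were Ppargc1a (9.89, a coactivator of gluconeogenic genes), Cxcl1 (9.42), Prox1 (9.22, a transcription factor of hepatoblasts), 0610005C13Rik (9.22) and Serpina10 (8.52). Over 730 squares of 100 µm, C3 was most like Hpx (Spearman correlation 0.860), Kng2 (0.808), Ambp (0.806), Slc27a2 (0.742) and Gc (0.719), and stood at 0.655 with Hc, 0.569 with Serpina10 and -0.208 with C1qb. Hc was most like Slc27a2 (0.766), Ambp (0.702), Serpina10 (0.676), Apoc2 (0.674) and Gamt (0.655). The squares share 1 section and its depth, so these correlations are descriptions. C3 was spread evenly through the tissue, with a median of 86.5 and a highest value of 193 per 10000 transcripts among squares, apart from a few low squares at an edge, the lowest at 1.26.

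In the E13.5 liver, too, both genes went with hepatocyte genes on the other panel, where Serpina10 was not probed. Cells with at least 3 counts of the hepatocyte list, here 5 genes, held 91.9% of the 665 C3 counts and 94.7% of the 360 Hc counts. C3 was at 808 CPM in them and 50.2 without a list count, a ratio of 16.1 (10.4 to 26.2). Hc was at 451 and 14.3 CPM, a ratio of 31.5 (14.3 to 86.3) that rests on 6 counts in the cells without the list. Cells with C1qb alone had 245 CPM of C3 (170 to 343) and 115 of Hc (66.0 to 187), and cells with Pdgfrb alone 191 and 78.0, against 546 and 301 in cells with neither. Among the leading genes of cells with at least 1 C3 transcript were Igfbp1, Cpn1 (a carboxypeptidase that inactivates C3a and C5a), Hc and Serpinc1, at 4.20 to 4.59 times. Among those of Hc cells were Igfbp1, Cpn1, Fga and Slc2a2, at 4.11 to 5.83 times, all of them genes of hepatocytes.

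In the P8 marrow, C3 was found with neutrophil genes, and was lower with C1qb or Pdgfrb alone than without an anchor. The section had 11256 C3 counts, and 89.6% of them lay in cells with at least 3 counts of the neutrophil list, which were 48.3% of cells. Those cells had 3001 CPM (2942 to 3060) against 319 in cells without a list count, 9.39 times as much (8.60 to 10.3). The monocyte or dendritic cell list gave 4440 against 741 CPM, or 5.99 times (5.71 to 6.29). The erythroid list, reached by 70.7% of cells, gave 1972 CPM and 2.60 times (2.38 to 2.84) and held 83.9% of the C3 counts. Cells with C1qb alone had 1581 CPM and those with Pdgfrb alone 1394, which were 0.801 times (0.765 to 0.839) and 0.706 times (0.666 to 0.748) the 1974 CPM of cells without an anchor. With at least 2 or 3 Pdgfrb transcripts the latter ratio was 0.465 and 0.394, and over nuclei it was 0.919 (0.838 to 1.005). Serpina10 alone gave 1.35 times, with an interval from 0.813 to 2.11 on 19 counts. The macrophage list turned the direction of C1qb, at 1.07 times (1.01 to 1.12).

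By single genes, the highest C3 was in cells with at least 3 transcripts of Fcnb (ficolin-B, a lectin of immature neutrophils and monocytes), at 12301 CPM against 987 in cells without it. Cybb (the oxidase subunit of phagocytes) gave 8961 CPM, Pglyrp1 (a granule protein) 8943 and Ifitm6 7716. S100a9, the general neutrophil gene, gave 5016 CPM and covered 60.8% of all C3 counts. Elane and Ctsg, proteases of promyelocytes, gave 6066 and 5998 CPM, and Mmp9, a gene of late neutrophils, gave 2714. The genes leading in cells with at least 3 C3 transcripts were Fcnb (22.5 times), Abca13 (15.3), Elane (10.4), Pglyrp1 (9.15) and Ctsg (8.89). Over 516 squares, C3 was most like Hp (0.856), Pglyrp1 (0.835), Fcnb (0.833), Cybb (0.832) and Ncf4 (0.832).

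The other tissues in the P8 section were low in C3. Cells of the skeletal muscle list had 134 CPM (108 to 165) with a C3 transcript in 2.09% of them, and cells of the cartilage list 290 CPM in 3.01%, at median depths of 154 and 104 counts. Stroma genes did not mark C3 here: the stroma list gave 0.862 times (0.815 to 0.912) the level of cells without it. Among its members Col1a2 gave 0.553 times, Lum 0.180 and Ccdc80 0.186. The exception was Pi16, a gene of adventitial fibroblasts, at 3574 CPM and 2.58 times (2.27 to 2.91) in 306 cells.

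The 89-week marrow, on the other panel, had 8719 C3 counts with a different spread. Cells with Pdgfrb alone had 1256 CPM (1133 to 1389), cells with C1qb alone 771 (725 to 819) and cells with neither 638 (624 to 653). The ratios were 1.97 (1.77 to 2.18) for Pdgfrb and 1.21 (1.13 to 1.29) for C1qb. The fat list gave 3018 CPM and 4.59 times (3.07 to 6.59) in 46 cells on 29 counts, and the monocyte or dendritic cell list 1151 CPM and 2.07 times (1.93 to 2.23). The stroma list gave 1.75 times, and within it Lepr, the receptor that marks adult marrow stroma, gave 2181 CPM and 3.38 times (2.60 to 4.32) in 130 cells. The neutrophil list gave 1.63 times (1.55 to 1.71) and held 24.5% of the C3 counts, with cells rich in Elane at 1033 CPM and those rich in Ctsg at 742. Cybb gave 3.27 times. Erythroid list cells were at 274 CPM, 0.303 times cells without a count of that list, and B cell list cells at 207 CPM, 0.293 times. Over 697 squares the nearest genes were Chil3 (0.486), Lyz2 (0.473), Fcnb (0.470), Cybb (0.453) and Lta4h (0.443), again genes of granulocytes and monocytes. The genes leading in the 152 cells with at least 3 C3 transcripts were Ccl8, Cxcl10, Cxcl9, Agt and Tnfsf11, on 5 to 28 counts each. The marrows also differ in fixation, in cutting and in the cartilage and muscle of the P8 section. Whether they differ by age, panel, preparation or tissue content cannot be told apart.

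In the untreated spleen, among marker lists with at least 50 cells, C3 was highest at the capsule and in fat, and next in stroma. Cells with some single stroma or macrophage genes were higher than the stroma list as a whole. The 215 cells with at least 3 counts of the mesothelium list (the capsule's lining, with Upk3b and Upk1b) had 73200 CPM (70735 to 75730), and all but a few of them, 99.5%, held C3. The 485 cells of the fat list had 42177 CPM. Together these rare cells bear on the whole: the fat list cells, 0.448% of all cells, held 7.78% of the C3 counts and the mesothelium list cells 4.73%. The genes leading in cells with at least 3 C3 transcripts were Car3 (106 times), Retn (69.9), Pck1 (56.6), Upk3b (46.3) and Krt19 (37.4), which are genes of fat and mesothelium.

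Stroma list cells were 15.0% of all cells and held 46.7% of the C3 counts, at 14864 CPM (14704 to 15026), against 3569 in cells without a list count, or 4.17 times (4.09 to 4.24). Cells with Pdgfrb alone had 14471 CPM, 2.06 times (2.01 to 2.11) those without an anchor. The 171 cells with Serpina10 alone were higher, at 17225 CPM and 2.45 times (2.17 to 2.75), although Serpina10 marks hepatocytes in the liver and was itself, outside the liver, at 1.93 to 4.88 times the highest negative control. The 58 cells with Serpina10 and Pdgfrb had 35751 CPM. Igfbp6, a fibroblast gene also known in mesothelium, gave 55361 CPM, Lum 42385, Dpt 33925 and Col1a2 18125. Cells with C1qb alone had 5146 CPM, 0.731 times (0.718 to 0.744), while the whole C1q+ macrophage list gave 1.11 times (1.08 to 1.13), so the direction for macrophages turned with the way they were chosen. The macrophage list took in 58.2% of cells and 67.6% of the C3 counts.

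The macrophage genes differed among themselves. Cells with at least 3 transcripts of Siglec1 (a receptor of marginal metallophilic macrophages) had 21217 CPM of C3, with Timd4 19033 and with Marco (a receptor of marginal zone macrophages) 11641. Cells with Adgre1 (F4/80) had 4404, with Slc40a1 (ferroportin, the iron exporter) 4198, with Mrc1 2687 and with Cd5l 2653, the last 4 being genes of red pulp macrophages in this tissue. The first 5 of these kept their order in cells without a stroma or mural list count, while Cd5l and Mrc1 changed places: 17068 CPM for Siglec1, 15842 for Timd4, 7408 for Marco, 2233 for Adgre1, 2188 for Slc40a1, 1924 for Cd5l and 1140 for Mrc1, against 3347 in all such cells. Over nuclei alone it was Siglec1 15240, Timd4 13793 and Marco 5979, against 2772. Siglec1 was counted in 279 such cells and Timd4 in 1203. C3 in T or NK list cells was graded by their distance from stroma. Such cells without a stroma, mural, mesothelium or fat list count had 4504 CPM within 10 µm of a stroma list cell, 3265 at 10 to 20 µm, 2145 at 20 to 40 µm and 1409 beyond. Erythroid cells chosen that way, with at least 10 list counts, ran the other way, at 519 CPM within 10 µm, 622 at 10 to 20 µm and 1222 at 20 to 40 µm, the last on 19 counts. In the PHZ spleen both were graded alike: T or NK list cells were at 3007, 1724 and 1096 CPM over these steps, and erythroid cells at 571, 329 and 281 CPM and at 234 beyond 40 µm. All erythroid cells with at least 10 list counts had 1155 CPM in the untreated and 963 CPM in the PHZ spleen, and 11.8% and 8.73% of them held a C3 transcript. Whether these cells make C3 was not tested.

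**Figure D3:**
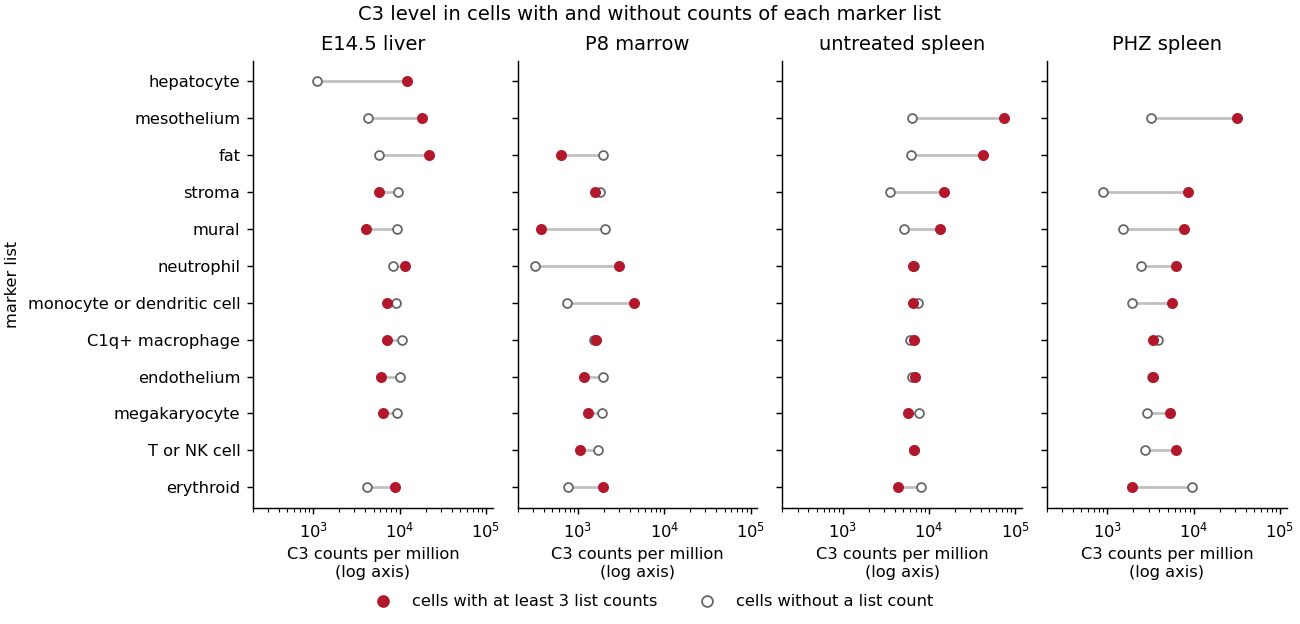
C3 in CPM on a log axis in cells with at least 3 counts of a marker list (red) and in cells without a count of it (open), for the 4 sections of the 477-gene panel and lists with at least 50 such cells. The widest gaps above the open points are at the hepatocyte list in the E14.5 liver, the neutrophil list in the P8 marrow, the mesothelium and fat lists in the untreated spleen and the mesothelium and stroma lists in the PHZ spleen.

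In the PHZ spleen, C3 was again higher in stroma and mesothelium. It was at 8702 CPM (8600 to 8805) in stroma list cells and 899 in cells without a list count, 9.68 times (9.39 to 9.99), and these cells held 71.1% of all C3 counts. Cells with Pdgfrb alone had 8391 CPM, 4.09 times (3.95 to 4.23) the 2051 CPM of cells without an anchor, and cells with Pdgfrb and C1qb had 9195. Serpina10 alone, in 85 cells, gave 6699 CPM and 3.27 times (2.43 to 4.30). Cells with C1qb alone had 2210 CPM, 1.08 times (1.05 to 1.11), and here the whole macrophage list gave 0.885 times (0.855 to 0.916), again a turn with the choice. Mesothelium list cells, 317 of them, had 31827 CPM. Only 3 cells reached the fat list, against 485 in the untreated section. Col1a2 cells had 12671 CPM and Igfbp6 cells 33743. The same 3 macrophage genes led, with 12478 CPM for Timd4, 10676 for Siglec1 and 6680 for Marco, against 3117 for Slc40a1 and 1388 for Cd5l. In cells without a stroma or mural count Adgre1 gave 1479 CPM (1018 to 2077) and Marco 899 (753 to 1065), against 815 in all such cells. Slc40a1, at 698 CPM (654 to 743), Mrc1, at 559 (451 to 684), and Cd5l, at 326 (268 to 393), were below that level. Timd4 and Siglec1 each had at least 3 transcripts in under 50 such cells, too few for a value.

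The genes leading in PHZ spleen cells with at least 3 C3 transcripts were Upk3b (90.7 times), Upk1b (81.1), Krt19 (56.5), Igfbp6 (26.9) and Krt8 (25.6). Over 701 squares C3 was most like Col1a2 (0.862), Il4ra (0.836), Emb (0.802), Cybb (0.794) and Ncf4 (0.781), and stood at 0.699 with Pdgfrb and 0.592 with C1qb. In the untreated spleen, over 462 squares, the nearest genes were Sod3 (0.761), Cp (0.747, ceruloplasmin), Serpina3n (0.639), Mustn1 (0.634) and Dsc3 (0.615), while Pdgfrb was at -0.221 and C1qb at -0.597. C3 was thus unevenly spread in both spleens: the 10% of squares with most C3 counts held 32.6% of them without PHZ and 38.9% after PHZ, while the 10% of squares with most transcripts of any gene held 13.1% and 16.8% of all transcripts. The same shares, of C3 and of all transcripts, were 43.2% and 26.3% in the P8 marrow and 17.4% and 13.9% in the E14.5 liver.

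**Figure D4:**
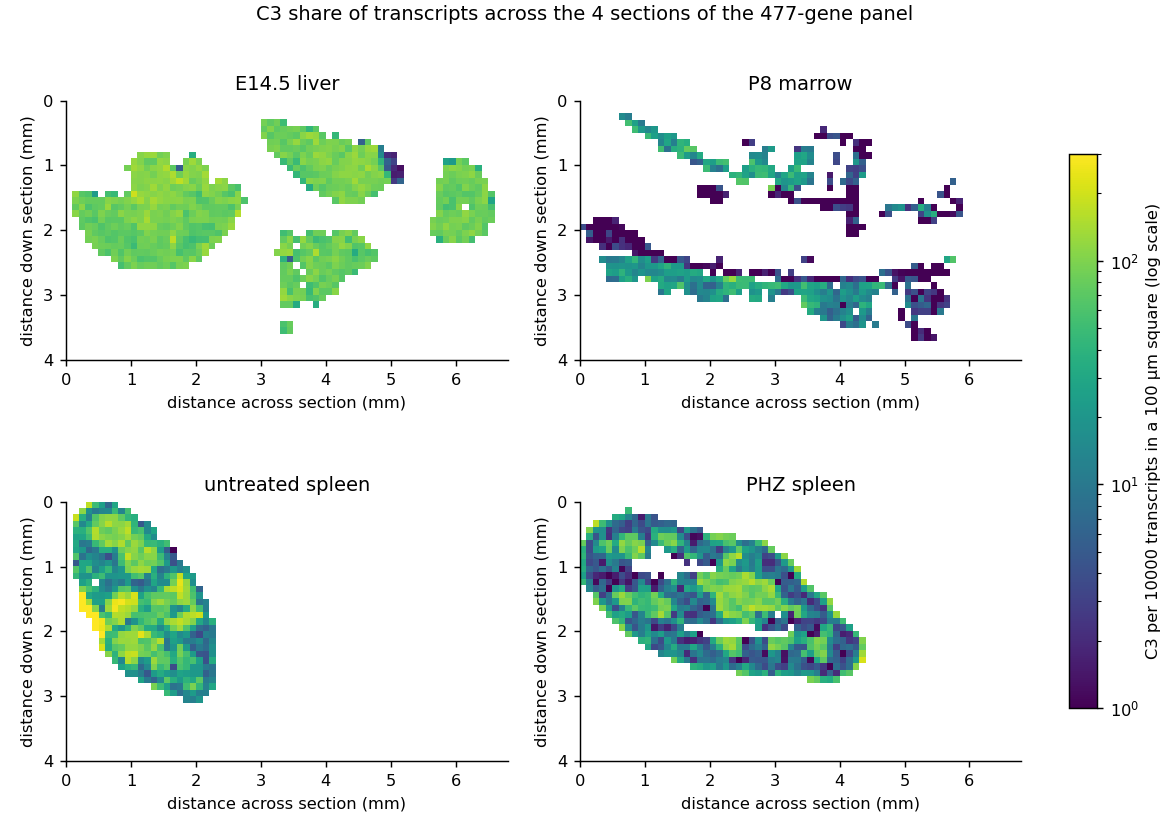
C3 per 10000 transcripts in squares of 100 µm with at least 20 cells, across the 4 sections of the 477-gene panel at 1 scale in mm, with values under 1 drawn as 1 and over 300 as 300. The liver is even apart from a dark edge on 1 piece, with a median of 86.5, while the spleens hold round patches and an edge of high squares, up to 556 in the untreated and 212 in the PHZ section.

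Between the spleens, C3 was lower after PHZ. The untreated section had 70416 C3 counts and 6802 CPM, the PHZ section 38946 counts and 3407 CPM, a ratio of 0.501 (0.495 to 0.507). That passed the 1.5-fold limit used here, as did 41.5% of the 472 genes with at least 100 counts over both sections in the lower direction and 16.5% in the higher direction. C3 ranked 131 from the lowest ratio, and the median gene stood at 0.731. Hc, with 320 and 269 counts, had a ratio of 0.761 (0.645 to 0.898), rank 248, which did not pass the limit and was near the median gene. Relative to that median the C3 ratio was 0.685 (0.677 to 0.694), which no longer passed the limit, and the Hc ratio was 1.04 (0.882 to 1.23). After thinning each cell to 50 transcripts, C3 was detected in 21.1% of untreated and 12.8% of PHZ cells, and before thinning in 28.6% and 20.1%. That step left out 16928 shallower cells of the untreated and 14650 of the PHZ section. C3 counts per mm2 of tissue were 15078 and 5520.

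Erythroid content differed between the spleens along with C3. All 9 erythroid list genes were higher after PHZ by more than 1.5-fold, with a median of 10.2 times, and 65168 PHZ cells had at least 3 list counts against 20287 untreated cells. Among cells without an erythroid count, C3 was at 8057 CPM in the untreated and 9538 in the PHZ spleen, a ratio of 1.18 (1.15 to 1.21). The ratio was 1.19 with 1 or 2 erythroid counts, 1.25 with 3 to 9 and 0.834 with 10 or more, a group of 3588 untreated and 50544 PHZ cells. In counts per cell rather than CPM these ratios were 1.05, 1.12, 1.07 and 0.682. In CPM Hc was above 1 in all 4 groups, at 1.68 (1.17 to 2.39), 2.18 (1.71 to 2.77), 1.16 (0.734 to 1.82) and 1.32 (0.491 to 5.01), the last pair with intervals that include 1, and per cell the ratios were 1.49, 2.06, 0.990 and 1.08. The Hc ratio was 2.25 (1.68 to 2.99) in T or NK list cells. Panel genes of similar total shifted in the same direction as Hc. Within each section, their level in T or NK list cells over cells without the list had a median of 1.04 untreated and 3.51 after PHZ. For the erythroid list the medians were 0.683 and 0.210. Ratios of those genes between the spleens within these cells are not given. C3 was lower in the PHZ section as a whole and higher in each group with fewer than 10 erythroid counts, and this split was chosen after seeing the data. The PHZ cells were shallower in every group, with medians of 59, 73, 85 and 137 counts against 71, 84, 107 and 163. Over all cells they were deeper, at 104 against 84. No background of other genes is given for these groups, so the turn cannot be called particular to C3.

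**Figure D5:**
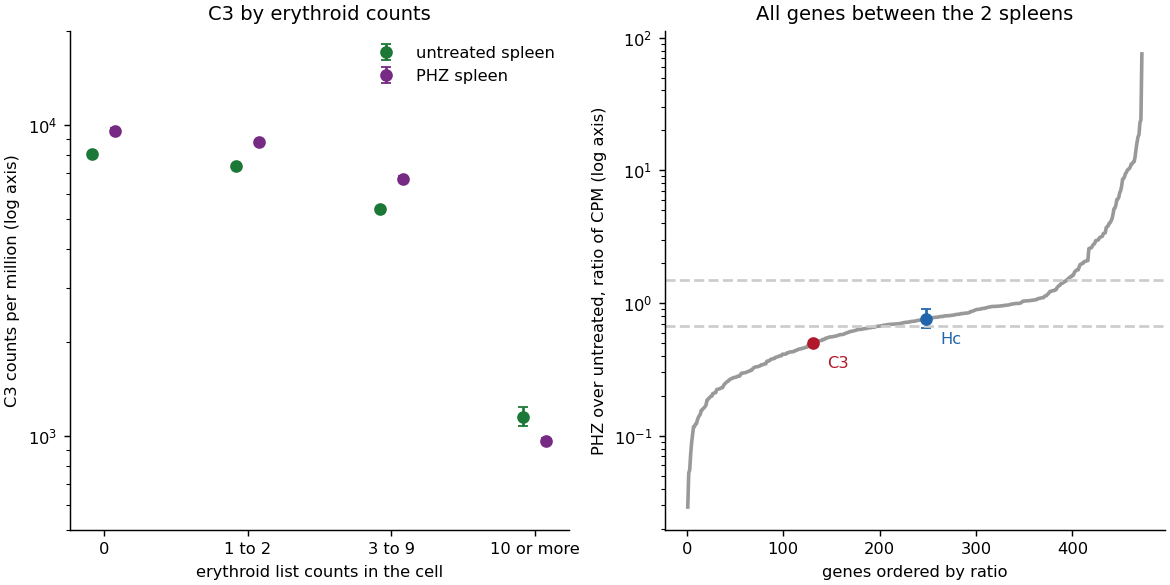
Left, C3 in CPM on a log axis in spleen cells grouped by their erythroid list counts, with 95% counting intervals; right, the PHZ over untreated ratio of all 472 genes in order, with C3 and Hc marked and dashed lines at 1.5-fold either way. C3 is higher in the PHZ section in the first 3 groups and lower in cells with 10 or more erythroid counts, and in the whole section its ratio of 0.501 is in the lower part of the curve.

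Other cell types moved between the spleens too. Of the 8 T or NK cell genes 7 were lower by more than 1.5-fold (median 0.159), as were all 4 fat genes (0.0640), 6 of 11 macrophage genes (0.584) and 6 of 11 stroma genes (0.614), the last pair of counts beside 41.5% over all genes. The stroma list as a whole was higher after PHZ, at 19921 CPM against 15282 in the untreated section. Its gene Col1a1 was at 7525 against 2508 CPM, and list cells were 22.4% against 15.0% of all cells. Of the 12 neutrophil genes 6 were higher by more than 1.5-fold (median 1.29) and none was lower by that much, beside 16.5% of all genes higher. The list was split, since Ly6g (0.6675), Mmp9 (0.6695), Cxcr2 (0.687) and Ifitm6 (0.693) were below 1 but within that limit. Within cells chosen the same way, C3 in PHZ over untreated was 0.585 (0.576 to 0.595) for stroma list cells, 0.580 for Pdgfrb alone, 0.435 for mesothelium, 0.430 for C1qb alone and 0.291 for cells without an anchor. It was 0.957 for neutrophil list cells, 0.939 for T or NK list cells and 1.15 (1.12 to 1.18) for cells with both C1qb and Pdgfrb. The other lists with at least 50 cells in both spleens gave 0.500 for macrophages, 0.498 for endothelium, 0.579 for mural cells, 0.446 for erythroid cells, 0.851 for monocytes or dendritic cells and 0.924 for megakaryocytes. No background of other genes within these cells is given. Over 100 µm from any fat or mesothelium cell, a choice also made after seeing the data, the ratio was 0.520 (0.513 to 0.527). The part of erythroid, fat and T cell content in the C3 ratio was not tested.

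Hc outside the livers was almost entirely single transcripts. A further transcript was found in 1 of 115 positive cells in the P8 marrow, 7 of 311 in the untreated spleen, 1 of 268 in the PHZ spleen and 0 of 84 in the 89-week marrow. Panel genes of similar total had medians of 1, 3, 2 and 1 such cells in these sections, so this is not particular to Hc. In the spleens Hc was no higher with C1qb alone or Pdgfrb alone than without an anchor. In the untreated spleen it was at 45.9 CPM without an anchor, 23.0 with C1qb alone and 23.9 with Pdgfrb alone. In the PHZ spleen those levels were 28.9, 22.0 and 18.7 CPM. In the P8 marrow the ratios to cells without an anchor were 1.25 (0.801 to 1.91) for C1qb and 0.761 (0.394 to 1.37) for Pdgfrb, on 35 and 14 counts. As shares of cells thinned to 50 counts the C1qb ratio was 2.72 (1.26 to 5.90). Of the lists with at least 50 cells, that of T or NK cells was the highest, at 88.3 CPM (69.6 to 111) in the PHZ spleen on 76 counts, 5.87 times cells without a list count. Of 122 panel genes with a similar total in that section, the median gave 3.51 times in the same cells, and 119 were below Hc. In the untreated spleen the values were 1.59 for Hc and 1.04 for the median of 120 such genes, of which 114 were below Hc. For the monocyte or dendritic cell list in the PHZ spleen, Hc was at 2.11 times against a median of 1.565, with 110 of 122 genes below it. That list in the untreated spleen gave 1.01 times for Hc against a median of 0.892, with 80 of 120 genes below it. Cells of the hepatocyte list were 4 in the untreated and 10 in the PHZ spleen, and held no Hc count, while the 39 such cells of the P8 marrow held 1.

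The position of the transcripts within cells differed between the genes. In the E14.5 liver, 44.8% of C3 transcripts in cells lay over the nucleus (44.5 to 45.0) against 63.2% of Hc (62.7 to 63.6) and 57.2% of all genes. C3 was below all genes in the untreated spleen too, at 49.0% against 58.9%, and in the PHZ spleen, at 43.5% against 51.0%. In the P8 marrow it was above, at 55.6% against 48.9%. Outside the liver Hc lay over the nucleus in 86.2% of its 116 counts in the P8 section. The shares were 81.3% without PHZ and 82.5% with PHZ in the spleens. Panel genes of similar total had medians of 73.1, 77.0 and 77.8% in these sections, above the 48.9, 58.9 and 51.0% of all genes. Hc was above 109 of 110 such genes in the P8 marrow, 97 of 120 in the untreated spleen and 106 of 122 in the PHZ spleen.

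The other complement genes on the panels give the surroundings of C3 and Hc. Of a list of 53 complement genes, 10 were on the 477-gene panel. In the E14.5 liver, Colec11 (a lectin that starts the lectin pathway) was at 592 CPM and 17.7 times as high in stroma list cells, Fcnb 80.5 times and Itgam (a chain of the receptor for C3 fragments) 27.6 times as high in neutrophil list cells. The C1q chains were at 1230 CPM for C1qa, 3727 for C1qb and 1643 for C1qc. C1qb in hepatocyte list cells was 0.215 times its level in cells without a list count, opposite to C3 and Hc. In the P8 marrow Fcnb, like C3, went with the neutrophil list, 47.4 times as high in its cells.

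On the 5050-gene panel 27 of the list were probed. In the E13.5 liver Cfb (factor B, the protease of the alternative C3 convertase) was at 621 CPM and 26.2 times (16.3 to 45.2) as high in hepatocyte list cells. Vtn (vitronectin, which blocks the membrane attack complex) was at 961 CPM and 33.2 times (21.6 to 53.8), so both went with C3 and Hc. Fcna (ficolin-A) was 125 times (84.5 to 193) as high in macrophage list cells. C6, a partner of C5 in the membrane attack complex, had 7 counts and C7 had 1. In the 89-week marrow C4b was 10.1 times (9.38 to 10.8), Cfb 7.71 times and C2 6.75 times as high in stroma list cells, where C3 was 1.75 times.

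Between the spleens, 4 of the 10 complement genes were lower by more than 1.5-fold, 2 were higher and 4 lay between, with a median ratio of 0.719 beside 0.731 over all genes. These counts are near the background of 41.5% lower and 16.5% higher. Among the lower genes were C3, Colec11 (0.519) and C1qa (0.560). C1qc (0.677), Hc, Itgam (0.794) and C1qb (0.945) lay between. C5ar1, the receptor for C5a on neutrophils and monocytes, was at 249 CPM in the untreated and 920 in the PHZ spleen, a ratio of 3.70 (3.55 to 3.87), and Fcnb had a ratio of 1.78 (1.67 to 1.90).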

How the data were processed

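The 6 mouse sections were imaged with Xenium probe panels. Per the labels, the run files and the methods, the authors fixed tissue in formalin and cut paraffin sections at 5 µm. The 89-week marrow was fixed in paraformaldehyde, then frozen and cut without decalcification, before it was embedded in paraffin. The deposited values were raw transcript counts per gene and cell, made by the Xenium onboard analysis (version 1.7.1.0 with the 477-gene panel, cells drawn by expanding nuclei, and version 3.1.0.4 with the 5050-gene panel, cells drawn from stains), whereas the methods name Space Ranger. Each deposited transcript carried a decoding quality score, and the counts keep transcripts with a score of at least 20. Cells with under 5 detected genes were left out, as in the study.

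Counts were summed over cells and given as CPM, counts per 1000000 gene counts of those cells. Intervals at 95% were exact (Poisson for levels, Clopper-Pearson for shares, conditional binomial for ratios). The intervals cover counting error only. With 1 section per condition no test was made. A cell belonged to an anchor class by holding at least 1 transcript of Serpina10, C1qb or Pdgfrb, and to a marker list at 3 or more list counts, against cells with 0. Both genes, the lists and the comparisons were chosen with earlier results of these data known. Named genes were the 5 with the largest ratio between cells with at least 3 transcripts (at least 1 for both genes in the E13.5 liver and for Hc outside the livers) and cells with 0, the 5 most alike over squares of 100 µm with at least 20 cells, and the genes of the lists. Between spleens, genes with at least 100 counts were called at 1.5-fold. Python 3.11.15, numpy 2.4.6, scipy 1.17.1 and pandas 2.3.3 were used, and the code was tested on simulated data. Results for some genes are not reported here. Genome positions and promoters are from RefSeq, GRCm38.p6.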

Additional observations from a re-analysis of the deposited data

How the results depend on the processing

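No paired analysis was possible because each condition was 1 section. Keeping all deposited cells, or only cells with at least 20 counts, moved no level and neither spleen ratio beyond its interval. Levels across panels depend on scaling, and depth limits Hc outside the livers, where 84 to 320 counts were seen. In the order E14.5 liver, P8 marrow, untreated spleen, PHZ spleen, E13.5 liver and 89-week marrow, scaling to the shared genes gave C3 at 20660, 3671, 12862.5, 6909, 6375 and 6701 CPM and Hc at 6143, 37.8, 58.5, 47.7, 3451 and 64.6. Per 1000 cells there were 1571, 223, 650, 412, 127 and 62.0 C3 counts and 467, 2.30, 2.95, 2.85, 68.5 and 0.597 Hc counts. Over nuclei in the first 4 sections C3 was at 6884, 1989, 5653 and 2909 CPM and Hc at 2887, 31.8, 42.6 and 38.1. Over all transcripts C3 was at 8687 (E14.5 liver) and 1628 CPM (P8 marrow) and Hc at 2590 (E14.5 liver).

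The C3 ratio of PHZ over untreated spleen was 0.520 without Hbb-bt, 0.634 per cell, 0.366 per mm2, 0.685 relative to the median gene (past the 1.5-fold limit no longer), 0.515 over nuclei and 0.591 at a quality score of at least 30. With choices made after seeing the data, it was 0.520 away from fat and mesothelium and turned to 1.18 in cells without erythroid counts. The Hc ratio was 0.964 (0.816 to 1.14) per cell and 0.556 per mm2. It was 1.04 (0.882 to 1.23) relative to the median gene, and both this interval and that per cell include 1. Without erythroid counts it turned to 1.68, again a choice made after seeing the data. The causes were not tested.

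In the E14.5 liver the Serpina10 ratio, with at least 2 or 3 transcripts, whatever the other anchors, over nuclei, as thinned shares and with the hepatocyte list, was 3.40, 3.90, 2.45, 3.55, 2.09 and 11.1 for C3 and 5.41, 6.53, 3.50, 5.84, 3.05 and 11.6 for Hc. The Pdgfrb ratio of C3 in the PHZ spleen was 5.41, 5.92, 4.38, 4.96, 3.27 and 9.68 under the same settings with the stroma list. In the untreated spleen it was 2.22 with at least 2 transcripts, 1.48 whatever the others, 2.42 over nuclei, 1.72 thinned and 4.17 with the list. The C1qb ratio of C3 in the PHZ spleen was 1.16 with at least 3 transcripts, 1.77 whatever the others, 1.13 over nuclei and 1.16 thinned, and reversed to 0.885 with the macrophage list. In the 89-week marrow the C1qb ratio was 1.59 and 1.89 with at least 2 and 3 transcripts, and the Pdgfrb ratio 1.75 with the list. Of ratios below 1, C1qb for C3 reversed to 1.07 in the P8 marrow and 1.11 in the untreated spleen with the list, and Pdgfrb for Hc in the E14.5 liver to 1.11 whatever the others.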
